A study of Mus musculus with 4 samples.

Results

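A set of 10 genes of the Notch pathway was followed in day 3 embryoid bodies (EBs), taken as the genes with the symbol *Dll1*, *Dll3*, *Jag1*, *Notch1*, *Notch2*, *Notch3*, *Hes1*, *Hes7*, *Lfng* or *Hey1*. All 10 were found among the 24347 genes listed. The RNA came from EBs of mouse ES cells (line E14Tg2a.IV, strain 129/Ola), grown for 3 days on bacterial plates. The study's methods name an ultra-low attachment dish, so the type of plate is uncertain. The medium held 15% serum, and LIF, the cytokine that holds ES cells undifferentiated, had been withdrawn. The groups were WT EBs (2 samples) and EBs of cells in which CRISPR/Cas9 with a pair of guides had removed the promoter of *Gm11549* (promoter KO, 2 samples). *Gm11549* encodes NEMEP, a small membrane peptide whose role in mesendoderm formation the study examined. Promoter KO lines were grown from single sorted cells, and the labels do not tie the 2 promoter KO samples to separate lines, so genotype and clone cannot be told apart. The study describes the samples of a genotype as biologically independent, and the sources used here do not say whether that means separate cultures, clones or days, so the p-values measure the spread between these samples only.

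Notch signalling passes between touching cells. Delta-like and Jagged ligands on 1 cell bind Notch receptors on the next, the receptor is cleaved, and its intracellular part joins the DNA-binding protein RBPJ in the nucleus to switch on *Hes* and *Hey* genes, which encode transcriptional repressors. In the presomitic mesoderm of the embryo, which arises from the primitive streak, these genes oscillate and time the formation of somites. In neural progenitors they hold back neuronal differentiation.

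Expression is given in FPKM, fragments scaled to transcript length and to library size, which allows levels of different genes to be set side by side. The depth, estimated from the values that a single fragment gives, was about 24500000 fragments for WT 1, 21800000 for WT 2, 21500000 for promoter KO 1 and 20000000 for promoter KO 2. At these depths the least abundant value among the 10 genes, *Hes7* in promoter KO 1, stood for about 47.7 fragments, with a counting error of about 14.5%. These are approximate figures that cover counting error only. A difference is the promoter KO mean minus the WT mean of log2(FPKM + 1), a scale that understates changes of low genes. It was called where limma, fitted over 11941 genes, gave a Benjamini-Hochberg adjusted p under 0.05.

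The targeted gene was examined first. *Gm11549* (GRCm38 chr3:36515057-36521813, minus strand) was listed at 0.750 FPKM (WT 1) and 0.522 FPKM (WT 2), against 0 FPKM (promoter KO 1) and 0.0659 FPKM (promoter KO 2). The WT values stand for about 48.4 and 29.9 fragments and the promoter KO values for 0 and 3.47, so that the order follows the labels, although the gene was too low in every sample to enter the test. *Hey1* and *Notch2* lie on the same chromosome, 27.8 and 61.5 megabases away.

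The labels call the cells ES-derived mesendoderm, and the 7 primitive streak and mesendoderm markers were listed above 0 in every sample. Their summed level was 732 FPKM (WT 1) and 942 FPKM (WT 2), against 144 FPKM (promoter KO 1) and 307 FPKM (promoter KO 2), with *T*, the T-box factor Brachyury, the most abundant except in promoter KO 1, where *Eomes* (56.3 FPKM) was above it (50.5 FPKM). In all 7 the promoter KO samples stayed below the WT samples, as for 32.4% of tested genes. Limma called 4 of the 7 lower (*Mixl1*, *Gsc*, *Mesp1* and *Evx1*), against 1.89% of tested genes, with differences between −4.14 and −2.33. Without WT 2, where limma called no tested gene, those differences lay between −3.20 and −2.12. Over 11 alternatives *Mixl1* and *Gsc* were each called in 6, *Mesp1* in 4 and *Evx1* in 2. *Pou5f1*, the pluripotency factor Oct4, led the 7 pluripotency markers, whose sum was 1750, 1440, 1920 and 1820 FPKM in the same order of samples, with none called. That sum is mostly *Pou5f1*. Of the 7 differences 6 were positive and 1 negative, with a median of 0.76, where 49.5% of all tested genes were negative. The groups of 5 markers were apart with promoter KO higher, as for 32.9% of tested genes. Among these 5 was *Esrrb* (difference 1.52, limma adjusted p = 0.0747), called in 1 of 11 alternatives. Its difference was 0.93 without promoter KO 1 and 2.1 without promoter KO 2. *Nanog* was apart with promoter KO lower (difference −0.38). Processed pseudogenes match *Nanog* (97.6% identity over 245 bases) and the pluripotency marker *Zfp42* (98.1% over 266 bases). Antisense genes share 118 exon bases of *Eomes*, 73 of *Evx1* and 317 of *Pou5f1*. The values of these genes are therefore uncertain. The 5 neural markers summed to 22.5, 25.2, 9.38 and 17.1 FPKM, of which *Nes* was 21.6, 24.5, 6.94 and 14.7 FPKM. *Sox1*, *Pax6*, *Zic1* and *Hes5* were below 1 FPKM in every sample. For each of these 4 low markers, which were not tested, the promoter KO values were the highest pair, opposite to *Nes*. The part of these cell types in the results below was not tested, and fewer cells of a type and less RNA per cell cannot be told apart in such bulk samples.

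The 2 WT samples differed from each other. Of the tested genes, 127 differed between WT 1 and WT 2 by at least 1 on the log2 scale, and 112 of these were higher in WT 2, against 91 genes that differed as much between the promoter KO samples. The tested gene with the largest excess in WT 2 was *Fos*, at 5.03 FPKM in WT 1 and 67.3 in WT 2. *Jun* (12.0 and 93.6 FPKM) and *Egr1* (9.94 and 66.1 FPKM) behaved alike; these 3 immediate early genes were chosen after their values were seen. The differences of the 10 genes are therefore also given without WT 2. Without WT 2, the lone WT sample being assumed to vary like the other group, limma called 0 genes in all, with 1875 at an unadjusted p under 0.05.

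Across the 10 genes, only *Hes1* was called, as lower in promoter KO. The background was 1.89% of tested genes called lower, 1.68% called higher and 3.58% called in either direction. All 10 genes passed the filter on low values and all 10 differences were negative, with a median of −0.57 against 0.00 over all tested genes, of which 49.5% were negative. Without WT 2 the 10 differences were still negative, but their median was −0.11. In 6 of the 10 (*Dll3*, *Jag1*, *Notch1*, *Notch3*, *Hes1* and *Hey1*) the genotypes were apart with promoter KO lower, as for 32.4% of tested genes, while 32.9% were apart with promoter KO higher. In the other 4 the groups overlapped. These shares are descriptions and were given no test.

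**Figure D1:**
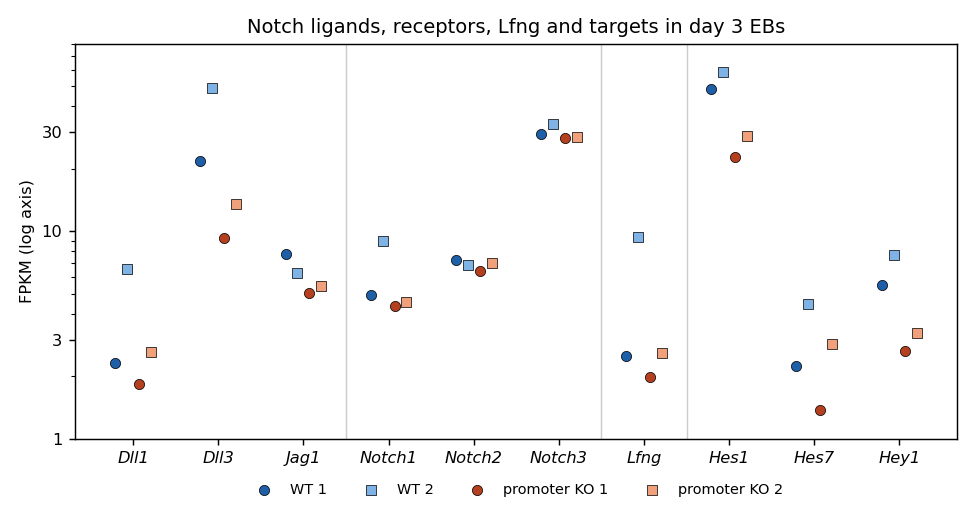
FPKM (log axis) of the 10 genes in WT 1, WT 2, promoter KO 1 and promoter KO 2, with vertical lines between ligands, receptors, *Lfng* and targets. *Hes1*, *Notch3* and *Dll3* stand highest, and for *Dll1*, *Notch1* and *Lfng* WT 2 lies well above the other 3 samples.

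Among the ligands, *Dll3* had the largest difference of the 10 genes. *Dll3* (chr7:28293553-28302238, minus strand) encodes a divergent Delta-like protein of the presomitic mesoderm that acts within the cell that makes it and does not activate Notch on neighbours. It was at 21.8 FPKM (WT 1) and 48.9 FPKM (WT 2), against 9.27 FPKM (promoter KO 1) and 13.5 FPKM (promoter KO 2). The promoter KO values were the lowest pair, but the WT samples were themselves 2.24-fold apart. The difference of −1.47 (standard error 0.37, 95% confidence interval −2.37 to −0.56, n = 2 per genotype) missed the threshold (limma adjusted p = 0.0716). It was −0.90 (adjusted p = 0.245 in limma) without WT 2, and −2.03 without WT 1, where it was called (adjusted p = 0.0395).

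*Dll1* (chr17:15367354-15376872, minus strand), the ligand that activates Notch in presomitic mesoderm and early neurogenesis, was less abundant. Its level was 2.32 FPKM (WT 1) and 6.59 FPKM (WT 2), against 1.83 FPKM (promoter KO 1) and 2.61 FPKM (promoter KO 2). Only WT 2 was high, and promoter KO 2 lay above WT 1. The difference of −0.65 (standard error 0.38, limma adjusted p = 0.296) became −0.05 without WT 2 and −1.25 without WT 1.

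*Jag1* (chr2:137081456-137116644, minus strand), a Jagged ligand, was at 7.78 FPKM (WT 1) and 6.30 FPKM (WT 2), against 5.03 FPKM (promoter KO 1) and 5.47 FPKM (promoter KO 2). Unlike *Dll1* and *Dll3* it was higher in WT 1 than in WT 2. The promoter KO samples lay below both, by a difference of −0.36 (95% confidence interval −0.72 to 0.01) that was not called (limma adjusted p = 0.168). The difference was −0.49 without WT 2 and −0.22 without WT 1.

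The other Jagged ligand, *Jag2*, had the opposite sign, with 16.4 FPKM (WT 1) and 12.1 FPKM (WT 2), against 23.0 FPKM (promoter KO 1) and 20.0 FPKM (promoter KO 2). Its difference was 0.57 (limma adjusted p = 0.0878, not called) and 0.37 without WT 2, and the promoter KO values were the highest pair. *Dll4*, the ligand of endothelium, did not exceed 0.239 FPKM in any sample. Of the summed level of these 5 ligands, *Dll3* held 45.0% in WT 1 and 66.1% in WT 2, but 23.5% in promoter KO 1 and 32.4% in promoter KO 2. *Jag2* held 33.9%, 16.4%, 58.4% and 48.0% in the same order. The most abundant ligand transcript was thus *Dll3* in both WT samples and *Jag2* in both promoter KO samples, a grouping made after the values were seen and given without a test.

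**Figure D2:**
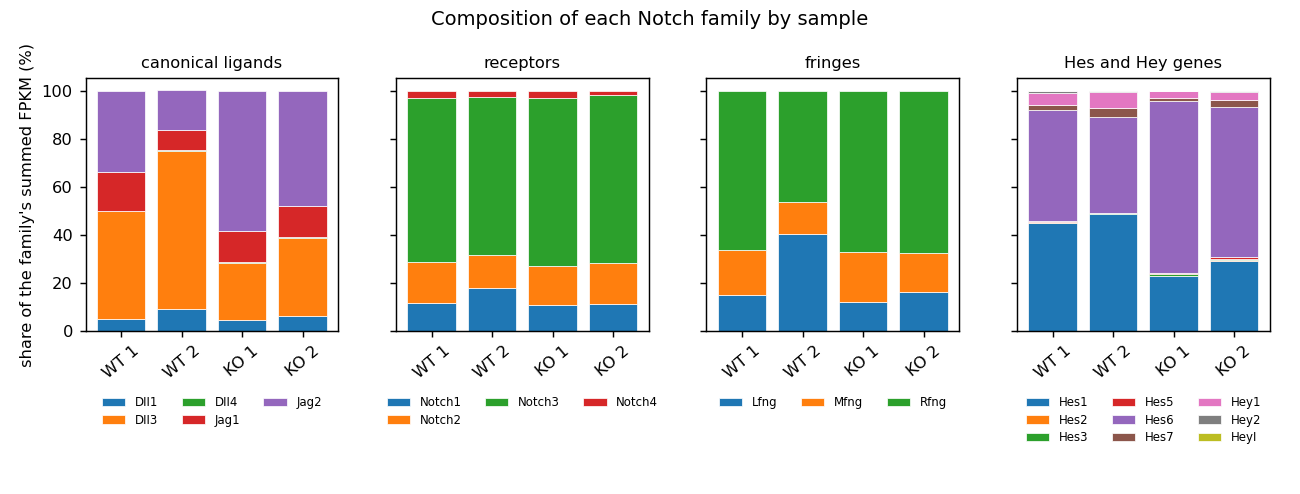
Share (%) of each family's summed FPKM held by each gene, for 5 ligands, 4 receptors, 3 fringes and 9 *Hes* and *Hey* genes, with 1 bar per sample (KO, promoter KO). *Jag2* holds the largest ligand share in both promoter KO bars and *Hes6* the largest *Hes* and *Hey* share in every bar but WT 2, while *Notch3* holds between 65.7% and 70.2% of the receptors in every sample.

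Of the 10 genes, *Notch2* and *Notch3* had the smallest differences. *Notch3* (chr17:32120820-32166852, minus strand) was the most abundant receptor, at 29.3 FPKM (WT 1) and 32.9 FPKM (WT 2), against 28.2 FPKM (promoter KO 1) and 28.6 FPKM (promoter KO 2). The promoter KO samples lay just below the WT samples, and the 95% confidence interval of the difference of −0.12, from −0.37 to 0.12, took in 0; without WT 2 the difference was −0.04. *Notch2* (chr3:98013527-98150361, plus strand) was at 7.28, 6.90, 6.45 and 7.05 FPKM in the same order, with overlapping groups and a difference of −0.06 (interval −0.37 to 0.25; −0.10 without WT 2). Each value of these 2 receptors stands for at least 1430 fragments, with a counting error of at most 2.65%.

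*Notch1* (chr2:26457903-26516663, minus strand), the receptor required for somite formation, was at 4.92 FPKM (WT 1) and 8.96 FPKM (WT 2), against 4.35 FPKM (promoter KO 1) and 4.56 FPKM (promoter KO 2). As for *Dll1*, WT 2 alone stood high, and WT 1 was near the promoter KO samples. The difference was −0.50 (limma adjusted p = 0.235) with all samples, −0.12 without WT 2 and −0.87 without WT 1. *Notch4*, a receptor of endothelium, was near the filter, between 0.756 and 1.29 FPKM. Exons of *Notch1* and *Notch3*, like those of *Dll1* and *Hes7*, overlap a gene on the other strand, so that without a stated strand setting their values may hold its fragments. Those of *Notch2* share 541 bases with a gene on the same strand, which no strand setting separates.

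*Lfng* (chr5:140607320-140615545, plus strand) encodes Lunatic fringe, a glycosyltransferase that adds a sugar to Notch receptors, changes which ligands they answer to, and oscillates in the presomitic mesoderm. It was at 2.49 FPKM (WT 1) and 9.39 FPKM (WT 2), against 1.99 FPKM (promoter KO 1) and 2.60 FPKM (promoter KO 2). WT 2 was 3.78-fold above WT 1, the widest gap between WT samples among the 10 genes, and promoter KO 2 lay above WT 1. The difference of −0.87 (standard error 0.48, limma adjusted p = 0.267) was −0.09 without WT 2, and was −1.66 without WT 1 (adjusted p = 0.0431). The other fringes did not share the gap: *Rfng* stayed between 10.8 and 11.3 FPKM and *Mfng* between 2.58 and 3.47 FPKM. *Lfng* held 40.3% of the fringe total in WT 2 and between 11.9% and 16.2% in the other 3 samples.

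Among the target genes, *Hes1* fell. *Hes1* (chr16:30064384-30067796, plus strand) encodes a repressor that Notch activates in many tissues and that represses its own gene. By the mean over the 4 samples *Hes1* was the most abundant of the 10 genes, although *Notch3* (28.2 FPKM) was above it in promoter KO 1. *Hes1* was at 48.7 FPKM (WT 1) and 58.7 FPKM (WT 2), against 22.8 FPKM (promoter KO 1) and 28.8 FPKM (promoter KO 2). The genotypes did not overlap, and the promoter KO mean of 25.8 ± 4.23 FPKM was 48.1% of the WT mean of 53.7 ± 7.03 FPKM (SD, n = 2). The log2 difference was −1.03 (standard error 0.15, 95% confidence interval −1.39 to −0.67, limma adjusted p = 0.0377). The call held without promoter KO 2 (−1.19, adjusted p = 0.0404) and was lost without each of the other samples: without WT 2 the difference was −0.90 (adjusted p = 0.198), without WT 1 it was −1.16 (0.0580), and without promoter KO 1 it was −0.87 (0.137). Over 11 alternatives in all its adjusted p ran from 0.0092 to 0.198, and *Hes1* was called in 6 of them.

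*Hey1* (chr3:8663359-8667256, minus strand), a related repressor that Notch also induces, was at 5.51 FPKM (WT 1) and 7.67 FPKM (WT 2), against 2.65 FPKM (promoter KO 1) and 3.23 FPKM (promoter KO 2). The groups did not overlap, and the promoter KO mean was 44.6% of the WT mean. The difference of −0.94 (standard error 0.19, 95% confidence interval −1.39 to −0.48) came close to the threshold without passing it (limma adjusted p = 0.0541), and was −0.73 without WT 2.

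*Hes7* (chr11:69120404-69124055, plus strand) encodes the repressor at the core of the somite clock. By the mean over the 4 samples it was the lowest of the 10 genes. In promoter KO 2 *Lfng* (2.60 FPKM) and *Dll1* (2.61 FPKM) were below it. *Hes7* was at 2.24 FPKM (WT 1) and 4.47 FPKM (WT 2), against 1.38 FPKM (promoter KO 1) and 2.87 FPKM (promoter KO 2). The groups overlapped, with promoter KO 2 above WT 1, and each genotype's samples were about as far apart (1.99-fold in WT, 2.08-fold in promoter KO). The difference of −0.47 (standard error 0.33, limma adjusted p = 0.362) was −0.10 without WT 2 and −0.12 without promoter KO 1, but −0.85 without WT 1 and −0.82 without promoter KO 2.

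**Figure D3:**
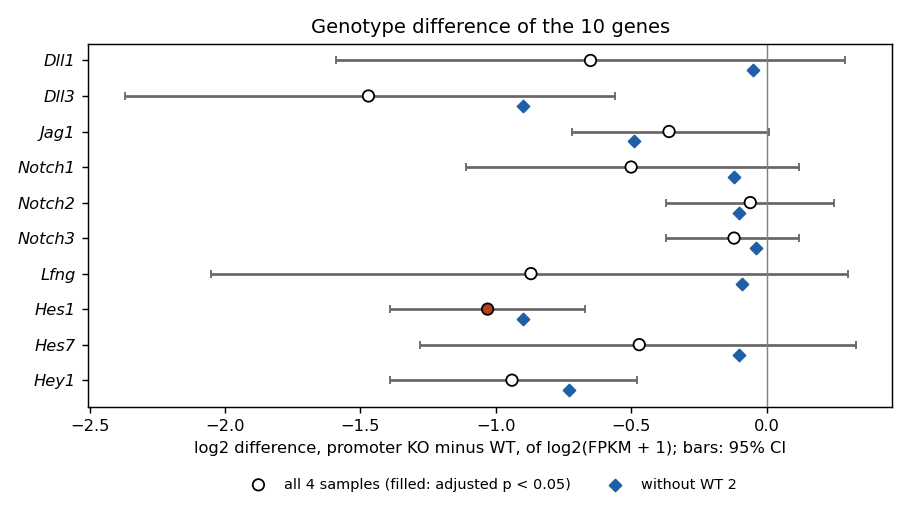
Genotype difference (promoter KO minus WT, log2(FPKM + 1) scale) of the 10 genes with the 95% confidence interval from all 4 samples (circles, filled where called) and the difference without WT 2 (diamonds). *Hes1* is the filled circle at −1.03, and the diamonds of *Dll1*, *Lfng* and *Hes7* lie near 0.

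Of the remaining *Hes* and *Hey* genes only *Hes6* was tested. *Hes6*, which encodes a relative that counteracts *Hes1* and promotes neuronal differentiation, was at 50.1 FPKM (WT 1) and 48.4 FPKM (WT 2), against 72.4 FPKM (promoter KO 1) and 62.1 FPKM (promoter KO 2). Its promoter KO values were the highest pair (difference 0.44, limma adjusted p = 0.0652, not called). Of the summed level of the 9 *Hes* and *Hey* genes, *Hes1* held 45.0% (WT 1) and 48.6% (WT 2), against 22.6% (promoter KO 1) and 29.1% (promoter KO 2). *Hes2*, *Hes3*, *Hes5*, *Hey2* and *Heyl* did not enter the test: *Hes5*, a Notch target of neural progenitors, did not exceed 0.952 FPKM, *Hey2* did not exceed 0.915 FPKM and *Hes3* did not exceed 0.541 FPKM.

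The wider pathway was described with a list of 65 genes, of which 53 were tested. Limma called 2 of them lower (*Hes1* and *Nrarp*) and 1 higher (*Kat2b*), where 1.89% of all tested genes were called lower and 1.68% higher. The median difference was −0.12 against 0.00 over all tested genes. Among the 43 tested genes outside the 10, the median was 0.01, with 21 negative and 22 positive differences. Without WT 2 none of the list was called.

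*Nrarp* (chr2:25180758-25183339, plus strand) encodes an ankyrin-repeat protein that Notch induces and that dampens Notch signalling in return. It was at 15.4 FPKM (WT 1) and 17.0 FPKM (WT 2), against 6.06 FPKM (promoter KO 1) and 8.52 FPKM (promoter KO 2). It fell by 1.07 on the log2 scale (standard error 0.17, limma adjusted p = 0.0422), and the genotypes did not overlap. The WT samples were close to each other, and without WT 2 the difference was −1.0, not called (adjusted p = 0.214); over 11 alternatives it was called in 6. An antisense gene covers 2051 bases of its exon, so the value is uncertain without a stated strand setting.

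*Kat2b*, which encodes the acetyltransferase PCAF, a coactivator in the nuclear Notch complex and at many other promoters, was at 3.35 FPKM (WT 1) and 2.73 FPKM (WT 2), against 8.17 FPKM (promoter KO 1) and 7.13 FPKM (promoter KO 2). It rose by 1.10 (standard error 0.15, limma adjusted p = 0.0371). A processed pseudogene matches it with 95.1% identity over 2479 bases, so its value is uncertain as well. Without WT 2 the difference was 0.99 (adjusted p = 0.186), and over 11 alternatives it was called in 6.

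By role, 0 of 5 tested ligands, 0 of 4 receptors, 0 of 5 glycosyltransferases, 0 of 3 ligand ubiquitin ligases, 0 of 8 genes of receptor cleavage and 0 of 9 corepressors were called. By the mean over the 4 samples, the most abundant gene in each of these roles was *Dll3*, *Notch3*, *Poglut1*, *Mib1*, *Psenen* and *Hdac1*, although *Jag2* passed *Dll3* in both promoter KO samples and *Neurl1a* (16.5 FPKM) passed *Mib1* (12.4 FPKM) in WT 2. The exons of *Neurl1a* share 690 bases with a gene on the same strand. Of the cleavage genes 7 of 8 had a negative difference, against 49.5% of all tested genes, with a median of −0.21. *Psenen*, a subunit of the gamma-secretase that cuts the receptor, was at 142, 138, 110 and 125 FPKM in the 4 samples in order. In the nuclear complex, with *Snw1* its most abundant gene, *Rbpj* had a difference of 0.35 (limma adjusted p = 0.134, not called), or 0.21 without promoter KO 1. *Rbpj* was between 15.3 and 16.1 FPKM in WT and between 18.4 and 22.5 FPKM in promoter KO. Processed pseudogenes match *Rbpj* (99.7% identity over 1441 bases), *Hdac1* (99.4% over 1444 bases) and *Psenen* (100% over 306 bases), and 2914 exon bases of *Snw1* are shared with a gene on the other strand, so these values are uncertain. By the same mean *Dtx3* was the most abundant of the inhibitors and *Hes6* of the *Hes* and *Hey* genes, with *Hes1* above *Hes6* in WT 2.

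**Figure D4:**
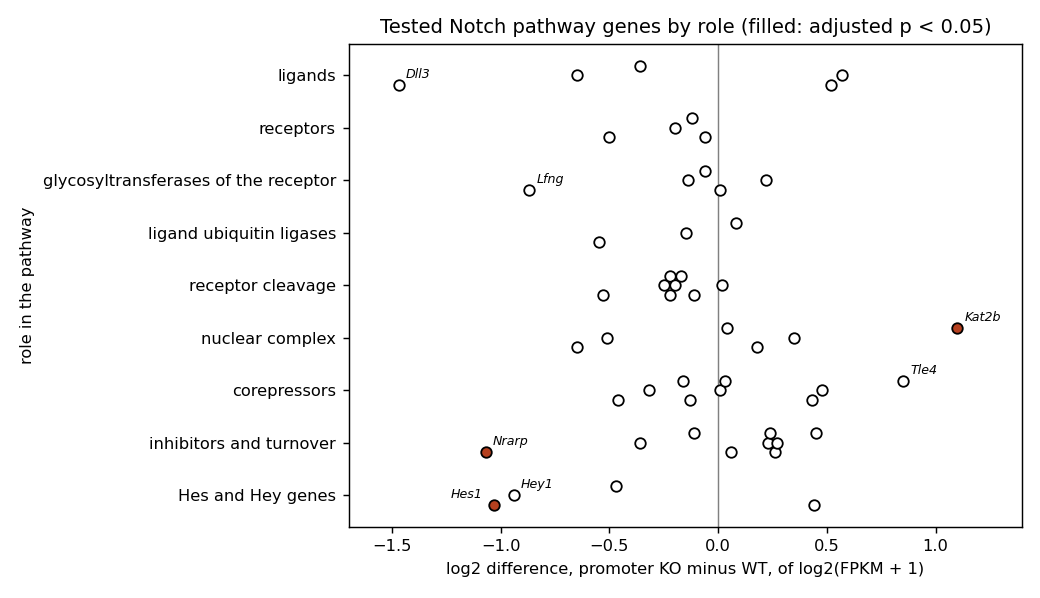
Genotype difference (promoter KO minus WT, log2(FPKM + 1) scale) of the 53 tested Notch pathway genes, 1 circle per gene, arranged by role. The 3 called genes (filled) are *Nrarp* and *Hes1* on the negative side and *Kat2b* on the positive side, while receptors lie between −0.50 and −0.06.

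Several of the 10 genes are used in the presomitic mesoderm, and a list of 18 genes of that tissue and its clock was set beside them. Limma called 2 of the 14 tested genes lower and 0 higher, against 1.89% and 1.68% of all tested genes. The median difference was −0.71, with 11 negative and 3 positive differences, where 49.5% of all tested genes were negative. The groups were apart with promoter KO lower in 7 genes and higher in 2, and overlapped in 5. Of all tested genes, 32.4% were apart with promoter KO lower and 32.9% with promoter KO higher. At an unadjusted p under 0.05 in limma, 3649 of all tested genes passed. *Fgf8*, which encodes a growth factor of the streak and tail bud, fell from 196 and 213 FPKM in WT to 48.9 and 77.7 in promoter KO (difference −1.71, adjusted p = 0.0310). *Nkd1*, a Wnt target and inhibitor, fell from 6.91 and 9.34 to 2.24 and 3.62 FPKM (difference −1.22, adjusted p = 0.0490). Without WT 2 the differences were −1.65 for *Fgf8* and −1.03 for *Nkd1*, neither called, and *Nkd1* was called in 2 of 11 alternatives against 6 of 11 for *Fgf8*. In 2 genes, named after their values were seen, the promoter KO values were the highest pair: *Ripply1* (difference 0.69, limma adjusted p = 0.0747) and *Spry4* (0.79, adjusted p = 0.0730). Neither was called in the fit described above. *Spry4* was called in 2 of 11 alternatives, with the replicate block (limma adjusted p = 0.025) and without promoter KO 2 (difference 1.06).

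In this list WT 2 stood above WT 1 for 10 of the 14 tested genes, against 49.1% of all tested genes. The excess was at least 1 on the log2 scale for 5 of the 10, against 112 of the 11941 tested genes. WT 2 was below WT 1 for the other 4. *Tbx6*, a T-box factor that specifies presomitic mesoderm, was at 1.29 FPKM (WT 1) and 6.74 FPKM (WT 2), against 0.307 FPKM (promoter KO 1) and 0.597 FPKM (promoter KO 2). It passed the filter on low values only through the WT samples, where it was higher. *Msgn1*, a factor of the same tissue, was at 0.846, 22.6, 0.280 and 0 FPKM in the same order, and was not tested because only WT 2 passed 1 FPKM. The summed level of the 5 presomitic markers, which include *Dll3* and *Hes7*, was 29.7 FPKM (WT 1) and 91.1 FPKM (WT 2), against 12.9 FPKM (promoter KO 1) and 17.9 FPKM (promoter KO 2), with *Dll3* the most abundant and none below 1 FPKM in every sample. Of the 10 Notch genes, 8 were higher in WT 2 than in WT 1, against the same 49.1% of all tested genes. For 3 of them (*Dll1*, *Dll3* and *Lfng*) the excess was at least 1 on the log2 scale. All 10 were higher in promoter KO 2 than in promoter KO 1. The matching share of all tested genes was not counted, so this is not shown to be particular to the 10 genes. The part that presomitic cells have in these differences was not tested.

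**Figure D5:**
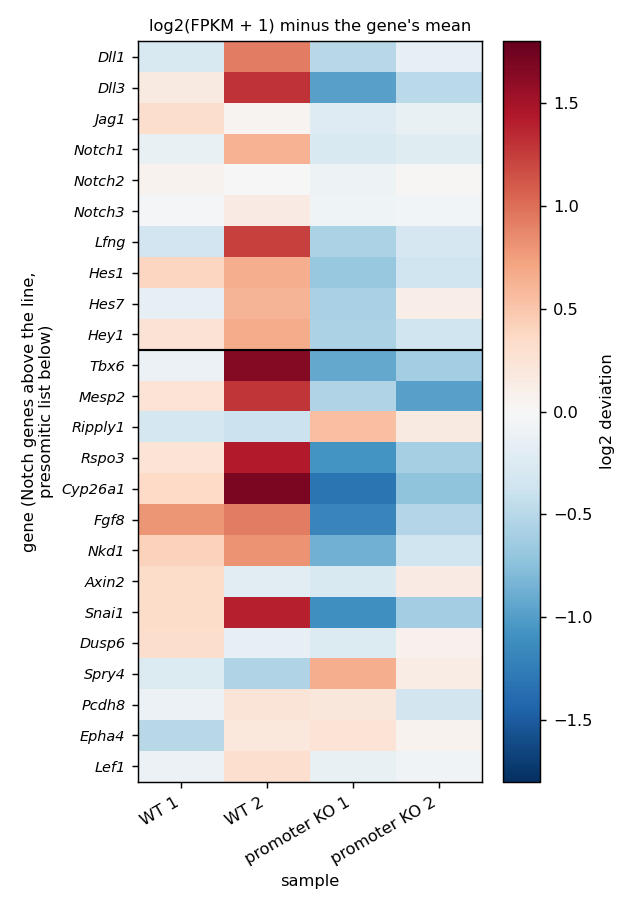
Deviation of log2(FPKM + 1) from each gene's mean over the 4 samples, for the 10 Notch genes (above the line) and the 14 tested presomitic genes (below it). WT 2 is the reddest column for *Dll1*, *Dll3* and *Lfng* and for *Tbx6*, *Mesp2*, *Rspo3*, *Cyp26a1* and *Snai1*, while *Hes1* and *Fgf8* are raised in both WT columns.

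The genes whose profile over the 4 samples was nearest to that of *Dll3*, by Euclidean distance between centred log2(FPKM + 1) values, were *Anxa2* (distance 0.13), *Zfp703* (0.18), *Igfbp3* (0.19), *Lhx1os* (0.19) and *Gbp2b* (0.20). *Anxa2*, for annexin A2, was at 50.0 FPKM (WT 1) and 101 FPKM (WT 2), against 22.1 FPKM (promoter KO 1) and 32.6 FPKM (promoter KO 2). None of the 5 was called, with differences between −1.65 and −1.38, or between −1.10 and −0.88 without WT 2. Their order of samples follows from how they were chosen.

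Markers of other cells were counted as well. Of all tested genes, 1.68% were called higher and 1.89% were called lower in promoter KO. Of 9 extraembryonic endoderm markers, 6 were called higher in promoter KO (*Sox7*, *Dab2*, *Col4a1*, *Sparc*, *Srgn* and *Ttr*), with differences between 1.14 and 3.54; without WT 2 these lay between 1.10 and 2.84, with 0 called. *Ttr* was called in 5 of 10 alternatives and *Col4a1* in 8 of 11, with the other 4 called in 6. *Sox7* was at 0.289 and 0.221 FPKM in WT and at 1.87 and 1.66 FPKM in promoter KO. It therefore passed the filter only through promoter KO, where it was high, and its call is not independent of that filter. A processed pseudogene on the other strand shares 211 exon bases of *Dab2*, so the value of *Dab2* is uncertain. The sum of the 9, led by *Sparc*, was 108 FPKM (WT 1) and 138 FPKM (WT 2), against 250 FPKM (promoter KO 1) and 306 FPKM (promoter KO 2); none was below 1 FPKM in every sample. The 7 endothelial markers summed to 5.50, 16.6, 10.1 and 6.57 FPKM in the same order, with *Cdh5*, *Tie1* and *Dll4* below 1 FPKM throughout and *Pecam1* the most abundant except in WT 2. There *Kdr* made up most of the sum, at 11.3 FPKM, while it reached at most 1.67 FPKM elsewhere. For *Pecam1*, *Tek* and *Cdh5* the promoter KO values were the highest pair, and for *Kdr* and *Notch4* the lowest. The 4 blood markers, all below 1 FPKM throughout, summed to 0.944, 1.42, 0.882 and 1.42 FPKM, with *Tal1* the most abundant. The part of these cells in the values of the 10 genes was not tested.

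Promoter windows from RefSeq (GRCm38.p6), taken as the 250 bases before the start site, were searched on both strands for letters that Notch pathway factors bind. Windows were available for 8 of the 10 genes. *Hes1* and *Hey1* had no window, so their promoters were not searched. RBPJ binds TGGGAA, often as GTGGGAA. The longer form, which contains the shorter, was in 5.42% and the shorter in 21.6% of 32851 windows. These windows are listed at 300 bases, of which 250 lie before the start site. Among the 8 genes with a window only *Lfng* and *Hes7*, both genes of the somite clock, held either, and both held GTGGGAA. Whether these letters go with the differences between genotypes was not tested. The *Lfng* window is shown because it carries the letters on both strands, and the *Hes7* stretch because it carries them on the reverse strand. *Nrarp* is shown as a gene whose window lacked TGGGAA. Bases inside annotated exons were left out at the end of the *Lfng* window, and the *Hes7* stretch lies in an exon of a gene on the other strand. Capitals mark TGGGAA or GTGGGAA and their reverse complements.
*Lfng*, chr5:140607091-140607319, plus strand: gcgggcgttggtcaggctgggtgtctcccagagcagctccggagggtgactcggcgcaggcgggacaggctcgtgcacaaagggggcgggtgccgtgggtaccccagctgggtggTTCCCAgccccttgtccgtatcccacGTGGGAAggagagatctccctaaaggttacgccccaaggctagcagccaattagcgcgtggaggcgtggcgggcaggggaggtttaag
*Hes7*, chr11:69120262-69120291, plus strand: cctcccctcacTTCCCACatttggggctag
*Nrarp*, chr2:25180508-25180757, plus strand: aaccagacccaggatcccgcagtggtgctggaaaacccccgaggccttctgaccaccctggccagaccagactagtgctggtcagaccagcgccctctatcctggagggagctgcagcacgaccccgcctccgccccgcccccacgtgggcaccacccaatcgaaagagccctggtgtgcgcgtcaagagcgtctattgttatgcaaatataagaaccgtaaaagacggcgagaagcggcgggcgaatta

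In *Lfng* the GTGGGAA began 109 bases before the start site and overlapped CACGTG, an E-box bound by Hes and Hey repressors, which began 112 bases before it. CACGTG was in 6.02% of all windows, and *Nrarp* held it too, 108 bases before its start. The N-box CACNAG, which Hes proteins also bind, was in 36.7% of windows and, of the 8 genes searched, in *Notch1*, *Notch2*, *Notch3*, *Hes7* and *Lfng*. The T-box letters AGGTGT (11.8% of windows) and the LEF/TCF letters ATCAAAG (3.21%) were in none of the windows of the 8 genes. In the rest of the pathway list GTGGGAA was in windows of *Hes5*, *Hey2*, *Psen2* and *Spen*. A match describes letters in these windows only.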

How the data were processed

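RNA-seq of 2 WT and 2 promoter KO samples was used, grouped by the sample titles. The values the authors deposited are FPKM per gene symbol in mm10. The study's methods name TopHat, Cufflinks and the GENCODE M4 annotation, and the submitters' processing notes name HISAT2 2.1.0, Cufflinks and Cuffnorm, so the aligner is uncertain; the strand setting is not given in the sources used here. Of 24347 entries, 27 had symbols that read as dates and 2 symbols occurred more than once.

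Depth was estimated as the library size at which the largest number of 5671 genes with a single transcript had a value equal to 1 fragment (within 0.02), for fragments of 200 bases, the length that gave the sharpest peaks among those tried, chosen after these were seen (448 genes over the 4 samples, against 400 at 300 bases and 233 at 100 bases). It is approximate and includes any scaling by the authors.

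The 11941 genes that reached 1 FPKM in 2 or more samples were tested on log2(FPKM + 1) with limma 3.58.1 in R 4.3.3 (eBayes with trend, 3.99 prior degrees of freedom), tested on simulated data, with Benjamini-Hochberg adjustment over all tested genes. An exact permutation test of 2 against 2 samples cannot go below p = 0.333 (two-sided). Coordinates, lengths and exon overlaps came from GENCODE M21 (GRCm38), copies from BLAST 2.17.0 (at least 95% identity over 200 bases), and promoters from RefSeq. Python 3.11.15, numpy 2.4.6, pandas 2.3.3 and matplotlib 3.10.9 were used.

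The genes named were the 10, genes of the pathway or context lists with an adjusted p under 0.05, the most abundant gene of each role, other family members, defining markers (others of a marker list that are named were picked out by their call), and the 5 genes nearest to the one with the largest difference. The members and lists were chosen with earlier results of these data known. The result of a further short list is not reported here. Alternatives covered the pseudocount, filters, trend, scaling, the replicate block, the call rule and leaving out each sample.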

Additional observations from a re-analysis of the deposited data

How the results depend on the processing

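All 10 genes kept a negative difference under every alternative in which they were tested, but the counts of calls moved. The fit described in the report called 226 genes lower and 201 higher. Without a filter beyond a value above 0, limma called 0 in both directions (4059 of 18215 genes at an unadjusted p under 0.05), and 0 of the Notch, presomitic and neural lists. With a mean of at least 5 FPKM it called 108 lower and 95 higher, with 1 presomitic gene lower and 1 neural gene higher; 4 of the 10 genes then left the test. Without the trend it called 27 lower and 55 higher, with 0 of the 10 genes, 0 pathway, 0 presomitic and 0 neural genes lower, but 1 pathway gene (*Kat2b*) and 2 neural genes higher. Median centring called 126 lower and 157 higher. Median centring, quantile normalization and a pseudocount of 0.1 each called 1 presomitic gene lower in place of 2. A fold above 2, taken on the log2(FPKM + 1) scale, with an unadjusted p under 0.05 was met by 2 of the 10 genes, *Hes1* and *Dll3* (*Hey1*, at −0.94, missed it on this scale, though its log2 ratio of mean FPKM was −1.17), and by 195 genes lower and 167 higher of the 11941. The cause of these changes was not tested. Of the other named genes with a fit, 5 changed sign in some alternative: *Rfng* (0.01 with all samples, −0.01 without WT 2, −0.02 without promoter KO 1, up to 0.04 without promoter KO 2), *Mfng* (from −0.22 without promoter KO 1 to 0.10 without promoter KO 2), *Mib1* (from −0.32 without WT 2 to 0.01 without WT 1), *Hdac1* (from −0.03 without WT 2 to 0.09 without WT 1) and *Egr1* (from −2.61 without WT 1 to 0.00 without WT 2).

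Leaving out each sample in turn gave between 0 and 248 genes lower and between 0 and 238 higher. The range was 0 to 2 of the 10 genes, 0 to 2 lower and 0 to 1 higher in the pathway list, 0 to 5 lower and 0 to 1 higher in the presomitic list, and 0 to 1 lower and 0 to 3 higher in the neural list. No gene was called without WT 2 or without promoter KO 1 (1875 and 2009 at an unadjusted p under 0.05); the lone sample is assumed to vary like the other genotype.

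With the replicate block, 667 genes were lower and 535 higher, with 3 of the 10 genes (*Dll3*, *Hes1* and *Hey1*), 5 lower and 4 higher in the pathway list, 5 lower and 1 higher in the presomitic list, and 2 lower and 3 higher in the neural list. Deviations of same-numbered samples had a correlation of 0.0348, and nothing in the labels pairs them. DESeq2 was not run, since the values are not counts. Counting error, at most 14.5% for a value of the 10 genes, limits *Hes7* most.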

Other observations

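The neural list held 18 genes, of which 8 were tested. Limma called 3 higher in promoter KO and 1 lower, against 1.68% and 1.89% of all tested genes. Without WT 2 none was called, with differences of 0.96 (*Pou3f1*), 0.55 (*Sox3*), 1.25 (*Neurod1*) and −0.69 (*Zic2*). *Pou3f1*, a POU factor of epiblast and early neural cells, rose from 44.6 and 40.2 FPKM in WT to 88.9 and 87.0 in promoter KO. Its difference was 1.04 (limma adjusted p = 0.0208), called in 8 of 11 alternatives. *Sox3* rose from 35.9 and 29.0 to 56.4 and 50.0 FPKM (difference 0.70, limma adjusted p = 0.0493, called in 1 of 11 alternatives). *Neurod1* rose from 0.863 and 0.554 to 3.89 and 2.99 FPKM (difference 1.38, limma adjusted p = 0.0371, called in 6 of 10 alternatives). Both WT values of *Neurod1* were below 1 FPKM, so it passed the filter only through promoter KO, where it was high. Its call and its place among the tested genes are therefore not independent. *Zic2* fell from 140 and 124 to 86.5 and 86.7 FPKM (difference −0.60, limma adjusted p = 0.0389, called in 5 of 11 alternatives). Of the 8 differences 5 were positive and 3 negative, where 49.5% of all tested genes were negative. The largest fall in the list was that of *Nes* (difference −1.1, limma adjusted p = 0.0831), which was not called. Exons of *Neurod1* and *Pou3f1* overlap genes on the other strand, and those of *Neurod1* also share 201 bases with a gene on the same strand, so both values are uncertain.

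*Neurog2* did not exceed 0.0494 FPKM in any sample. *Sox1*, which marks neural progenitors, was between 0.0523 and 0.357 FPKM.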
